A study of Mus musculus with 9 samples.

Results

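The suppressors of cytokine signaling and the signal transducers and activators of transcription were examined through 9 genes, Socs1, Socs2, Socs3, Cish, Stat2, Stat3, Stat4, Stat5a and Stat6, taken by symbol from 54532 listed genes. Each symbol was listed once, and all 9 genes were among the 12746 that passed the filter for testing, a level of 1 FPKM or more in no fewer than 3 of the 9 libraries. FPKM is the number of reads on a gene per kilobase of its length, scaled to the size of the library. Cish passed through 3 libraries, N-mDC 3, T-DC 2 and T-DC 3. Socs2 and Stat4 passed through the 6 libraries of N-mDCs and T-mDCs, so these 3 genes were tested through the groups in which they were high.

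Bulk RNA was sequenced from dendritic cells (DCs) sorted from the spleens of healthy mice and of mice with T cell acute lymphoblastic leukemia (T-ALL), with 3 samples per group. N-mDCs were mature conventional DCs of healthy mice. T-DCs were CD11c+ cells with low surface MHCII, and T-mDCs were mature conventional DCs, both from leukemic mice, in which retrovirally transduced cells expressing the intracellular domain of Notch1 and GFP had been transplanted without irradiation into C57BL/6J or C57B6.SJL hosts. The mice were female and 6 to 8 weeks old per the study's methods, red cells were lysed before the sort, and the transduced cells were the leukemia cells. The cells were sorted on day 15 per the study's methods. Whether a library held 1 animal or several is not given in the sources used here, so p-values measure the spread between these libraries.

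Cytokines bind receptors that carry Janus kinases (JAKs), the kinases phosphorylate STAT proteins, and the STATs enter the nucleus and switch on target genes. Several SOCS genes, Cish among them, are such targets, and their proteins bind the receptors or the JAKs and damp the same signal. In DCs, STAT3 lies downstream of IL-6 and IL-10, STAT5 downstream of GM-CSF, STAT6 downstream of IL-4, and STAT2 in the response to type I interferon.

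Reads on genes ran from 15360815 to 18440913 per library, and a single read stood for 0.0517 to 0.0659 FPKM at a gene length of 1 kilobase. T-DC 1 stood apart from T-DC 2 and T-DC 3, with correlations of log2(FPKM + 1) across genes of 0.836 and 0.808, against 0.961 between T-DC 2 and T-DC 3. Red cell marker genes (8 genes, of which 8 were at 1 FPKM or more in every T-DC library, 5 in every N-mDC library and 3 in every T-mDC library) took 5.08% and 3.83% of the reads of T-DC 2 and T-DC 3 and 0.0563% of those of T-DC 1. T-mDC 2 and T-mDC 3 were the most alike libraries, with a correlation of 0.991. Counting noise alone would give a chi-square of 1 per gene. This pair gave 1.85, and the remaining within-group pairs ranged from 8.11 to 36.1. This does not show whether they are independent samples. They were kept as 2 samples, as labelled, and with their mean as 1 sample a single gene of the 9 passed in each T-DC comparison (Stat4 against N-mDCs and Socs2 against T-mDCs). Of the 12746 tested genes, 1394 and 540 passed in these comparisons in that fit. Of the 4 DC markers, all were above 1 FPKM in every library. The gene of CD11c, Itgax, was at 152, 90.4 and 43.0 FPKM in T-DCs 1 to 3 and at 158 to 230 FPKM in the 6 mature DC libraries. The DC genes Flt3 and Zbtb46 were also detected in T-DCs, the former at 15.4, 6.11 and 4.48 FPKM, against 44.4 to 89.1 FPKM in mature DCs, and the latter at 1.84, 2.84 and 3.42 FPKM, against 10.7 to 23.5 FPKM. The 4 markers together, mostly the MHCII gene H2-Ab1, summed to 171 to 681 FPKM over T-DCs, 4314 to 6150 FPKM over N-mDCs and 2533 to 3866 FPKM over T-mDCs. T-DCs were sorted for low MHCII, and the part of this lower DC marker level in the differences of T-DCs was not tested. In bulk libraries, fewer cells of a type and less RNA per cell cannot be told apart.

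Promoter sequence was looked up because several of these genes are themselves targets of STATs or interferon. RefSeq promoters (build GRCm38.p6, 250 bases before to 50 after a start) were at hand for 8 of the 9 genes, and were searched on both strands for the STAT motif TTCNNNGAA, the wider STAT6 motif TTCNNNNGAA and the interferon element GAAANNGAAA. Of 32817 mouse promoters, 8.29%, 6.95% and 3.43% hold these motifs. Cish held TTCNNNGAA at 2 places just after its start, bases 1 to 9 and 12 to 20, and Socs3 held it at bases -154 to -146. Socs1 held 2 overlapping matches of GAAANNGAAA at bases -83 to -74 and -77 to -68. Stat2 held TTCNNNNGAA at bases -210 to -201, and GAAANNGAAA on the other strand at bases -222 to -213. Stat4 held GAAANNGAAA in a promoter of a later start, at bases -97 to -88, and the promoters of Stat3, Stat5a and Stat6 held none of the 3 motifs. The 4 promoters with a match at the start listed first are printed from 250 bases before to 30 bases after the start, with the matches in capitals. They are chr9:107296409-107296688 on the plus strand for Cish, chr16:10785507-10785786 on the minus strand for Socs1, chr11:117969337-117969616 on the minus strand for Socs3 and chr10:128270248-128270527 on the plus strand for Stat2. A match describes the letters and shows no binding.
Cish: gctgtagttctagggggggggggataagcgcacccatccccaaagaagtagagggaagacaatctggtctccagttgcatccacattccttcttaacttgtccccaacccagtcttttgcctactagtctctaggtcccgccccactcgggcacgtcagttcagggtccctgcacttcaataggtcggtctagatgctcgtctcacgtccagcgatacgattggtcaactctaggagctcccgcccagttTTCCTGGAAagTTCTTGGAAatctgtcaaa
Socs1: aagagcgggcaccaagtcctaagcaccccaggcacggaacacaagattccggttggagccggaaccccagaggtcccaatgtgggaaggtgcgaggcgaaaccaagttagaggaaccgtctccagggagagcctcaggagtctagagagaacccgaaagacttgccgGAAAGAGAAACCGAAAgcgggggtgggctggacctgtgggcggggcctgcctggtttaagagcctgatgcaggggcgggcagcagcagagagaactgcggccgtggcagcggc
Socs3: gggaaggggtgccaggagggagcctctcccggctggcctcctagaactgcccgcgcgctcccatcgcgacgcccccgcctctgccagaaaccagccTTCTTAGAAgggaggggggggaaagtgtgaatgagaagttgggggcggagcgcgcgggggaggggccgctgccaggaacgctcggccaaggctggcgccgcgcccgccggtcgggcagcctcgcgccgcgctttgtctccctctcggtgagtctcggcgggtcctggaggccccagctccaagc
Stat2: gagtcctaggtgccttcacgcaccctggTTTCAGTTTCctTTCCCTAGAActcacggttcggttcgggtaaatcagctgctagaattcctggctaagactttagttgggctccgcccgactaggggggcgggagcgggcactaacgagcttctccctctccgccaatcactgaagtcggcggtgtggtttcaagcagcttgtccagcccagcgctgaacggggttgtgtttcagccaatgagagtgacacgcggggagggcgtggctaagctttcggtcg

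Compared with N-mDCs, T-DCs expressed less Socs1, Socs2, Stat2 and Stat4 and more Socs3, while Stat3, Stat5a, Stat6 and Cish did not pass the threshold. With limma on log2(FPKM + 1), 5 of the 9 genes were past an adjusted p of 0.05, against 16.4% of all tested genes. Of these, 1 was higher and 4 were lower, where 6.10% of all tested genes were higher and 10.3% were lower. The same 5 genes were those whose libraries did not overlap between the groups, which held for 32.4% of all tested genes. The median log2 fold change was -0.17 over the 9 genes and 0.05 over all tested genes. Adding 1 to FPKM understates the fold changes of low genes.

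Compared with T-mDCs, T-DCs expressed less Socs1, Socs2 and Stat4. In limma, these 3 of the 9 genes were past the threshold, against 14.2% of all tested genes, and all 3 were lower, where 5.44% of all tested genes were higher and 8.79% were lower. The libraries of 5 genes did not overlap (34.9% of all tested genes), namely these 3, Cish and Stat5a. The median log2 fold change was -0.62 over the 9 genes and 0.07 over all tested genes. This comparison and that with N-mDCs share the T-DC libraries. With red cell markers as a covariate, 1 of the 9 genes (Stat4) and 522 of all tested genes passed against N-mDCs. Against T-mDCs, 0 of the 9, as of all tested genes, passed in that fit.

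Between T-mDCs and N-mDCs, 0 of the 9 genes passed the threshold in limma, against 2.21% of all tested genes (0.690% higher and 1.52% lower). Limma voom on reads also gave 0, where 173 of all tested genes passed. In limma, 5 genes had an unadjusted p under 0.05, a count that was not taken over all tested genes and so cannot be judged. The libraries of 5 genes, Socs2, Socs3, Cish, Stat2 and Stat4, did not overlap (35.0% of all tested genes). Over the 3 groups together, the limma F-test called 3 of the 9 genes, Socs1, Socs2 and Stat4, with adjusted p of 0.0281, 0.00436 and 0.00639, against 18.0% of all tested genes.

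**Figure D1:**
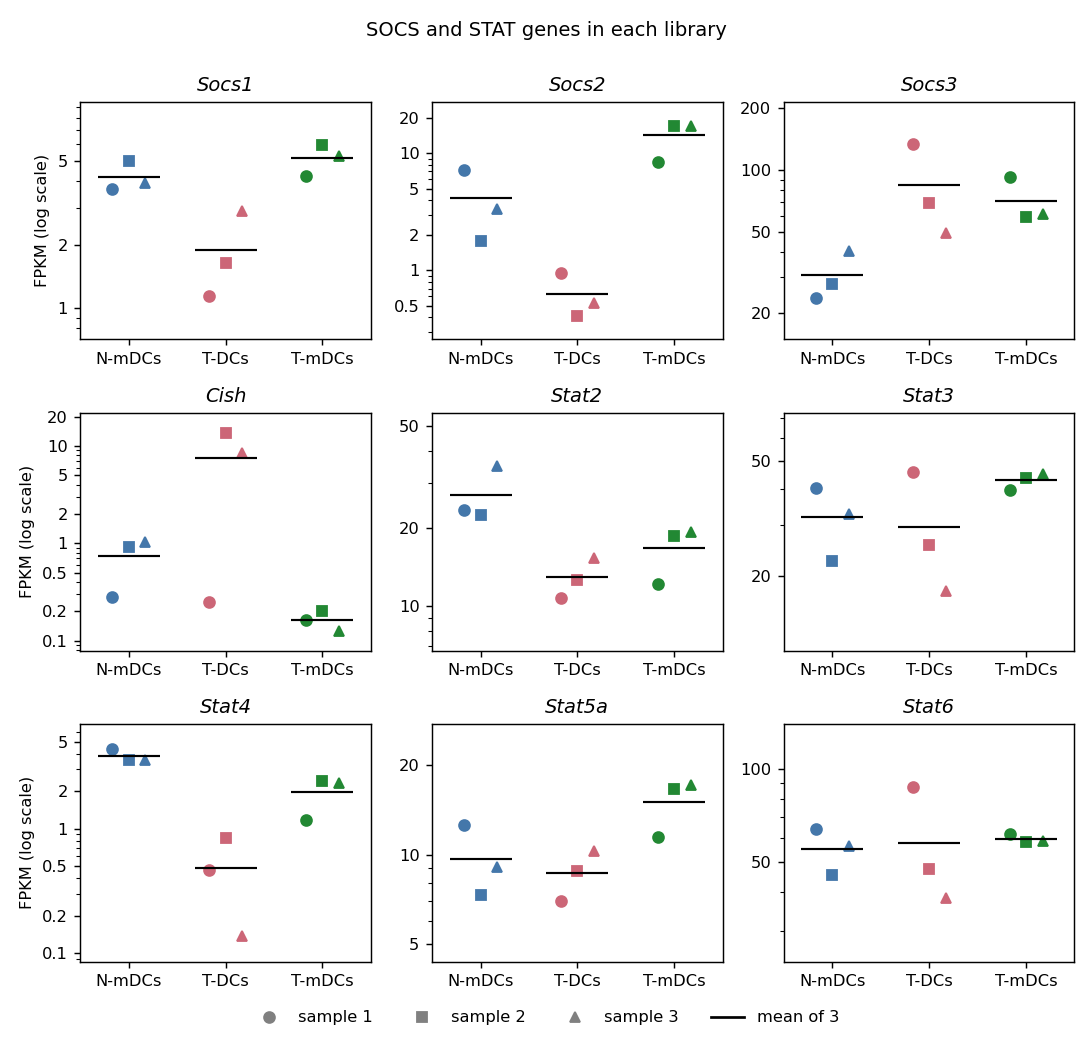
Level of each of the 9 genes in every library, as FPKM on a log axis; color and position give the group (N-mDCs, T-DCs, T-mDCs), the symbol the sample number, and the line the mean of 3 libraries. Socs2 and Stat4 were below 1 FPKM in all T-DC libraries, and Cish was at 13.6 and 8.49 FPKM in T-DC 2 and T-DC 3 but at 0.252 FPKM in T-DC 1.

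**Figure D2:**
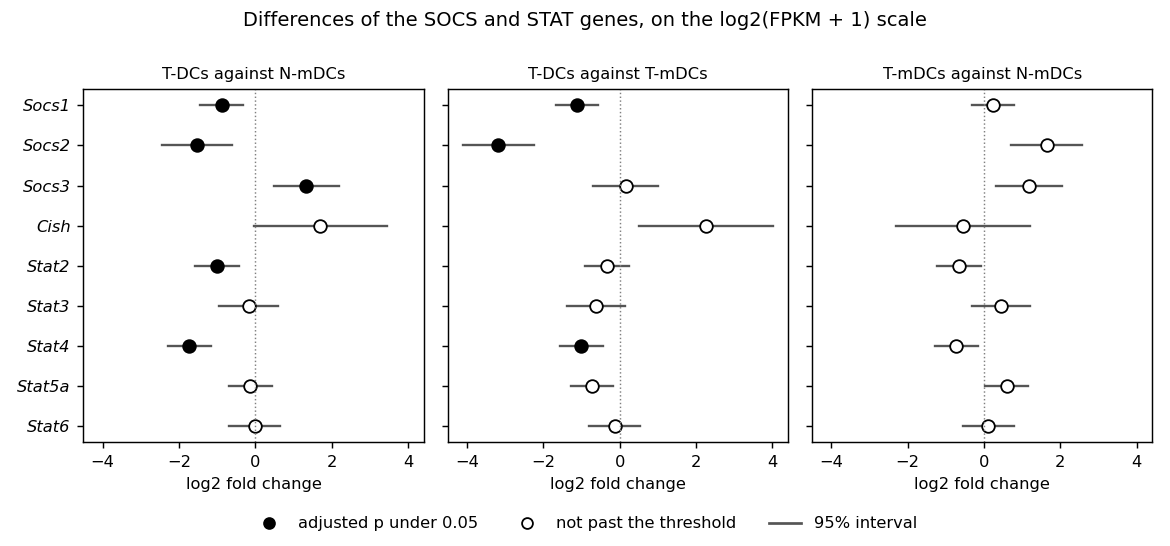
Log2 fold change of each gene in the 3 comparisons (first group minus second, on the log2(FPKM + 1) scale), with the 95% interval of limma as a line. Filled points passed an adjusted p of 0.05, which 5, 3 and 0 of the 9 genes did from left to right. Of all tested genes, 16.4%, 14.2% and 2.21% did.

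Socs1 encodes an inhibitor that binds JAKs directly and limits interferon signals (ENSMUSG00000038037, chromosome 16, 10782240 to 10785536, minus strand, mm10 as for all genes here). Its level was 3.67, 4.98 and 3.92 FPKM over the 3 N-mDC libraries, 1.13, 1.64 and 2.90 FPKM over the T-DC libraries and 4.24, 5.96 and 5.25 FPKM over the T-mDC libraries. The 3 T-DC libraries were below all 6 others, and the ranges of N-mDCs and T-mDCs overlapped. Against N-mDCs, the log2 fold change of T-DCs was -0.88 ± 0.24 (SE, limma adjusted p = 0.0408), and it was -1.13 ± 0.24 (limma adjusted p = 0.0196) against T-mDCs. It was 0.24 between T-mDCs and N-mDCs (limma adjusted p = 0.656). The call against N-mDCs was lost when any of N-mDC 1 to 3, T-DC 2 or T-mDC 1 to 3 was left out, with limma adjusted p between 0.0524 and 0.121 and fold changes of -0.95 to -0.78. That against T-mDCs was lost without T-DC 2, T-mDC 2 or T-mDC 3, at -1.11 to -1.03 and limma adjusted p of 0.0699 to 0.0955. The libraries held 59 to 335 reads of Socs1.

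Socs2 encodes a regulator of growth hormone and STAT5 signaling (ENSMUSG00000020027, chromosome 10, 95385362 to 95417180, minus strand). In sample order, N-mDCs held 7.21, 1.79 and 3.38 FPKM, T-DCs held 0.943, 0.413 and 0.525 FPKM and T-mDCs held 8.44, 16.98 and 17.14 FPKM. The 3 groups did not overlap, with T-DCs lowest and T-mDCs highest. The mean was 4.13 ± 2.79 FPKM (SD, n = 3) for N-mDCs, 0.627 ± 0.279 FPKM for T-DCs and 14.2 ± 4.98 FPKM for T-mDCs. The fold change of T-DCs against T-mDCs, -3.17 ± 0.41 (SE) on the log2 scale, had the largest size among the 9 genes in the 3 comparisons (95% interval -4.10 to -2.25, limma adjusted p = 0.00257). It stayed past the threshold whichever of the 9 libraries was left out, at -3.49 to -3.01.

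Against N-mDCs, the Socs2 fold change of T-DCs was -1.53 ± 0.41 (SE, limma adjusted p = 0.0364). This call was lost without N-mDC 1, N-mDC 3, T-DC 2, T-DC 3, T-mDC 2 or T-mDC 3, at -1.57 to -1.12 and limma adjusted p of 0.0560 to 0.112. The difference between T-mDCs and N-mDCs was 1.65 (limma adjusted p = 0.0848). It passed without N-mDC 1, at 2.06 (limma adjusted p = 0.0417), and without T-DC 1, at 1.65 (limma adjusted p = 0.0480). Of all tested genes, 219 and 1022 passed in these 2 fits, against 282 in the main fit. Socs2 was lower where red cell markers were higher (Pearson r = -0.928 on the log2 scale over the 9 libraries, which share scaling and group). T-DC 1, with a summed red cell level of 591 FPKM, held 0.943 FPKM of Socs2, below N-mDC 2, with 5274 FPKM of red cell markers and 1.79 FPKM of Socs2. With red cell markers as a covariate, the fold changes were -0.75 (limma adjusted p = 0.343) against N-mDCs and -2.01 (limma adjusted p = 0.230) against T-mDCs, a fit in which 0 genes passed in the latter comparison.

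Socs3 encodes the inhibitor that binds the shared receptor chain of IL-6 and is itself a STAT3 target (ENSMUSG00000053113, chromosome 11, 117966079 to 117970047, minus strand). The N-mDC libraries held 23.9, 27.8 and 40.3 FPKM, the T-DC libraries 135, 69.4 and 49.4 FPKM and the T-mDC libraries 92.7, 59.0 and 60.8 FPKM. All 6 libraries from leukemic spleens were above the 3 from healthy spleens, and T-DCs and T-mDCs overlapped. T-DCs had a log2 fold change against N-mDCs of 1.34 ± 0.38 (SE, 95% interval 0.48 to 2.20, limma adjusted p = 0.0436). It was 1.18 for T-mDCs against N-mDCs (limma adjusted p = 0.161) and 0.16 for T-DCs against T-mDCs (95% interval -0.70 to 1.01, limma adjusted p = 0.808). The T-DC call was lost without N-mDC 1, 2 or 3, T-DC 2, T-mDC 2 or T-mDC 3, at 1.18 to 1.55 and limma adjusted p of 0.0635 to 0.136. The T-mDC difference passed without T-DC 1, at 1.18 (limma adjusted p = 0.0365), a fit in which 1022 of all tested genes passed, against 282 in the main fit. The sign of the difference between T-DCs and T-mDCs turned without T-DC 1 (-0.24) and with quantile normalization (-0.13).

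Cish encodes CIS, an inhibitor that binds phosphorylated receptors and is a target of STAT5 (ENSMUSG00000032578, chromosome 9, 107296026 to 107302784, plus strand). Its level was 0.279, 0.919 and 1.03 FPKM over the 3 N-mDC libraries, 0.252, 13.6 and 8.49 FPKM over the T-DC libraries and 0.165, 0.202 and 0.127 FPKM over the T-mDC libraries. T-DC 2 and T-DC 3 held 1353 and 827 reads of Cish, while the other 7 libraries held between 15 and 120. T-DC 1, with 29 reads, was close to N-mDC 1, with 28 reads, and T-mDC 2, with 25 reads. The log2 fold change of T-DCs was 1.71 ± 0.77 (SE, limma adjusted p = 0.15) against N-mDCs and 2.26 (95% interval 0.51 to 4.01, limma adjusted p = 0.0847) against T-mDCs. Without T-DC 1 it was 2.79 (limma adjusted p = 0.000172) and 3.34 (limma adjusted p = 0.000108), so a single library decided both calls. Over all tested genes, leaving out T-DC 1 raised the calls from 2096 to 5030 and from 1813 to 4475.

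Cish was high in the libraries with the most red cell and neutrophil RNA. Red cell markers summed to 591, 57770 and 40500 FPKM in T-DCs 1 to 3, and ranged from 96.4 to 5274 FPKM over N-mDCs and from 14.4 to 176 FPKM over T-mDCs. Neutrophil markers (5 genes, with 2 at 1 FPKM or more in every library of each group) summed to 7.41, 2859 and 951 FPKM in T-DCs 1 to 3, and ranged from 53.9 to 592 FPKM over N-mDCs and from 3.10 to 10.8 FPKM over T-mDCs. None of the markers of either list was at 0 in every library of a group. The erythropoietin receptor gene, Epor, was at 8.67, 104 and 127 FPKM in T-DCs. Over the 9 libraries, the Pearson r of Cish on the log2 scale was 0.885 with red cell markers and 0.845 with neutrophil markers. With red cell markers as a covariate, the Cish fold change of T-DCs was -0.19 (limma adjusted p = 0.872) against N-mDCs and -0.56 (limma adjusted p = 0.746) against T-mDCs. With T-DC 1 as the only T-DC library it was -0.45 against N-mDCs (limma adjusted p = 0.420), its spread being taken from the other groups.

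**Figure D3:**
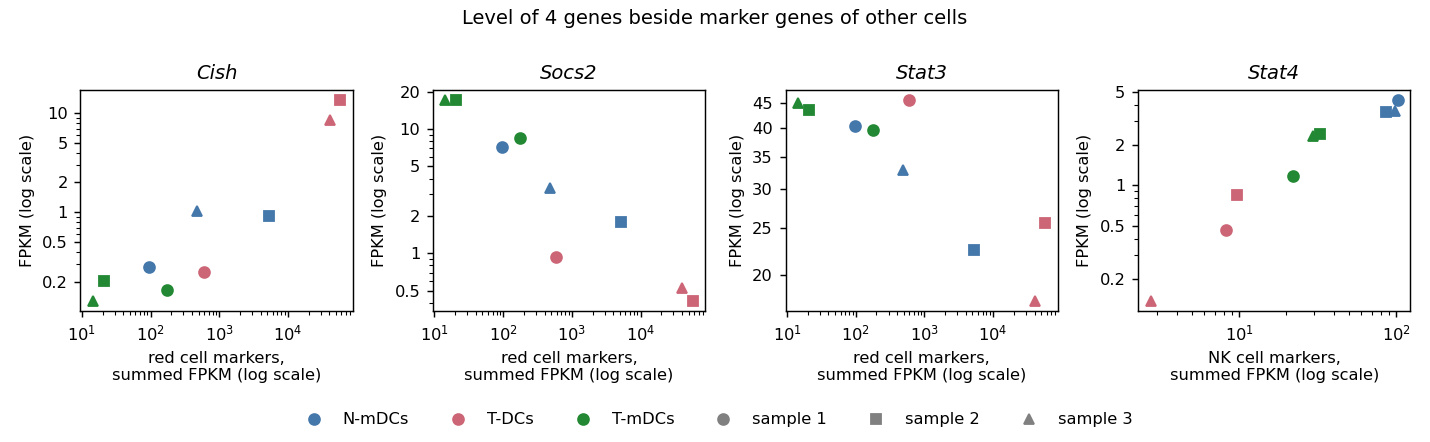
FPKM of Cish, Socs2 and Stat3 against the summed FPKM of 8 red cell markers, and of Stat4 against that of 4 NK cell markers, 1 point per library, with all axes on a log scale, color for the group and symbol for the sample number. Cish was highest and Socs2 and Stat3 were low in T-DC 2 and T-DC 3, the libraries with 57770 and 40500 FPKM of red cell markers, and Stat4 was low where the sum of NK cell markers, mostly Klrd1, was low.

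Stat2 encodes the STAT of the type I interferon response, where it acts with IRF9 (ENSMUSG00000040033, chromosome 10, 128270559 to 128292849, plus strand). In sample order, N-mDCs held 23.6, 22.4 and 35.0 FPKM, T-DCs held 10.7, 12.6 and 15.4 FPKM and T-mDCs held 12.1, 18.6 and 19.4 FPKM. All 6 libraries from leukemic spleens were below the 3 from healthy spleens, and T-DCs overlapped with T-mDCs. T-DCs had a log2 fold change against N-mDCs of -0.997 ± 0.25 (SE, limma adjusted p = 0.0309). It was -0.66 for T-mDCs against N-mDCs (limma adjusted p = 0.234) and -0.33 for T-DCs against T-mDCs (limma adjusted p = 0.405). The call was lost without N-mDC 1, N-mDC 3, T-DC 2, T-mDC 2 or T-mDC 3, at -1.08 to -0.80 and limma adjusted p of 0.0515 to 0.0967. Without T-DC 2 and T-DC 3 together, the T-DC fold change was -1.23 (limma adjusted p = 0.0879).

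Stat4 encodes the STAT activated by IL-12, best known from T and NK cells (ENSMUSG00000062939, chromosome 1, 51987148 to 52107189, plus strand). The N-mDC libraries held 4.34, 3.55 and 3.57 FPKM, the T-DC libraries 0.461, 0.850 and 0.136 FPKM and the T-mDC libraries 1.18, 2.41 and 2.33 FPKM. The 3 groups did not overlap, in the order N-mDCs, T-mDCs, T-DCs. Means were 3.82 ± 0.454 FPKM (SD, n = 3), 1.97 ± 0.689 FPKM and 0.482 ± 0.357 FPKM in that order. The log2 fold change of T-DCs against N-mDCs was -1.73 ± 0.25 (SE, 95% interval -2.28 to -1.17, limma adjusted p = 0.00339). It stayed past the threshold in each of the 19 alternatives in which Stat4 was tested, with limma adjusted p of up to 0.0459.

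Against T-mDCs, the Stat4 fold change of T-DCs was -1.002 ± 0.25 (SE, limma adjusted p = 0.0297). This call was lost without N-mDC 3, T-DC 3, T-mDC 2 or T-mDC 3, at -1.002 to -0.83 and limma adjusted p of 0.0516 to 0.130. That of T-mDCs against N-mDCs was -0.72 (limma adjusted p = 0.184). The summed FPKM of the 4 NK cell markers ran from 86.2 to 103 over N-mDCs, from 22.1 to 32.6 over T-mDCs and from 2.73 to 9.65 over T-DCs. Most of that sum was Klrd1, at 70.1 to 93.2, 21.7 to 31.6 and 2.47 to 7.98 FPKM in the same order. The other 3 markers were higher over N-mDCs than over either leukemic group, but among the leukemic libraries T-DC 2 had the highest level of each, as with Ncr1 at 0.109, 0.838 and 0.0428 FPKM for T-DCs and 0.0344, 0.605 and 0.318 FPKM for T-mDCs. Of these markers, 4 were at 1 FPKM or more in every N-mDC library and 1 in every T-DC and every T-mDC library, and none was at 0 in all libraries of a group. Stat4 followed the sum with a Pearson r of 0.982 on the log2 scale over 9 libraries, and the DC markers with 0.930. The part of NK cells in the Stat4 differences was not tested. The libraries held 8 to 263 reads of Stat4.

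Stat3 encodes the STAT downstream of IL-6, IL-10 and FLT3 ligand (ENSMUSG00000004040, chromosome 11, 100885098 to 100939540, minus strand). Its level was 40.4, 22.6 and 32.8 FPKM over the 3 N-mDC libraries, 45.7, 25.5 and 17.7 FPKM over the T-DC libraries and 39.6, 43.7 and 45.1 FPKM over the T-mDC libraries. T-DCs covered the whole range of N-mDCs, and T-DC 1 was above every other library. The log2 fold change of T-DCs was -0.17 (95% interval -0.94 to 0.60, limma adjusted p = 0.756) against N-mDCs and -0.62 (95% interval -1.39 to 0.15, limma adjusted p = 0.259) against T-mDCs. Without T-DC 1, the latter was -0.97 and passed (limma adjusted p = 0.0223). Leaving out T-DC 1 also raised the calls over all tested genes in that comparison, from 1813 to 4475. With T-DC 1 as the only T-DC library, the fold change against T-mDCs was 0.10. Against N-mDCs, it ran from -0.53 to 0.14 when libraries were left out in turn. Stat3 followed red cell markers with a Pearson r of -0.877 on the log2 scale over 9 libraries, and with them as a covariate both fold changes were above 0, at 0.63 and 0.57, neither past the threshold.

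Stat5a encodes a STAT downstream of GM-CSF and other growth factors (ENSMUSG00000004043, chromosome 11, 100859351 to 100885169, plus strand). In sample order, N-mDCs held 12.6, 7.34 and 9.11 FPKM, T-DCs held 7.01, 8.81 and 10.2 FPKM and T-mDCs held 11.4, 16.6 and 17.1 FPKM. T-mDCs were above all T-DCs and overlapped with N-mDCs. The log2 fold change of T-DCs against T-mDCs was -0.72 ± 0.25 (SE, 95% interval -1.28 to -0.16, limma adjusted p = 0.0852). It passed with quantile normalization, at -0.88 (limma adjusted p = 0.0480), and with limma voom on reads, at -0.93 (limma adjusted p = 0.0470). Against N-mDCs it was -0.13 (limma adjusted p = 0.752), and T-mDCs differed from N-mDCs by 0.59 (limma adjusted p = 0.270). Stat5a and its near-identical neighbor Stat5b may share reads, depending on a counting method that is not given in the sources used here, so their split is uncertain. Stat5b ran from 21.4 to 29.98 FPKM over N-mDCs, from 28.9 to 51.4 FPKM over T-DCs and from 25.4 to 28.9 FPKM over T-mDCs, and passed in none of the comparisons.

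Stat6 encodes the STAT downstream of IL-4 and IL-13 (ENSMUSG00000002147, chromosome 10, 127642986 to 127660957, plus strand). The N-mDC libraries held 64.1, 45.6 and 56.3 FPKM, the T-DC libraries 87.1, 47.6 and 38.2 FPKM and the T-mDC libraries 61.6, 58.2 and 58.4 FPKM. The T-DC libraries spanned the range of all others, with T-DC 1 highest and T-DC 3 lowest of the 9. The log2 fold change of T-DCs against N-mDCs was -0.02 (95% interval -0.68 to 0.65, limma adjusted p = 0.976). It was -0.13 against T-mDCs (limma adjusted p = 0.793), and T-mDCs differed from N-mDCs by 0.11 (limma adjusted p = 0.877). These intervals leave room for changes in either direction. With array weights, which give each library a weight by its spread, T-DCs passed at -0.31 against N-mDCs (limma adjusted p = 0.0257). Against T-mDCs they passed at -0.29 (limma adjusted p = 0.00290). Of the 12746 tested genes, 8485 and 9923 passed in these comparisons with array weights, where 2096 and 1813 passed in the main fit. The Stat6 calls with array weights thus do not set it apart from most tested genes.

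Some of these genes overlap others in GENCODE M21, and whether reads were counted by strand is not given in the sources used here. The exons of Stat3 and Stat5a share 72 bases on opposite strands, and those of Stat6 and Nab2 share 40. Cish overlaps the antisense genes Gm17040 and Gm17041 over 261 and 479 bases, and Stat4 overlaps Gm28177 over 1033 bases on the same strand. Nab2 had a mean of 5.46 FPKM over the 9 libraries, and the Gm genes had means of 0 to 0.192 FPKM.

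Within a group, FPKM is per length and can be ordered between genes. In N-mDCs, Stat6 was highest at a mean of 55.3 FPKM, followed by Stat3, Socs3 and Stat2 (31.9, 30.7 and 27.0 FPKM), whose libraries overlapped from each to the next. Stat5a (9.68 FPKM) lay apart from its neighbors, Socs1, Socs2 and Stat4 (4.19, 4.13 and 3.82 FPKM) overlapped, and Cish was lowest at 0.743 FPKM. In T-DCs, Socs3 had the highest mean at 84.4 ± 44.6 FPKM (SD, n = 3), overlapping with Stat6 (57.7 FPKM), which overlapped with Stat3 (29.7 FPKM). Stat2 (12.9 FPKM) lay apart from Stat3 above and Stat5a below (8.69 FPKM). Cish (7.45 FPKM) ran from 0.252 to 13.6 FPKM and overlapped with every gene from Stat2 to Stat4 in this order, Socs1 (1.89 FPKM) lay below all libraries of Stat5a, and Socs2 and Stat4 (0.627 and 0.482 FPKM) were lowest. In T-mDCs, Socs3 and Stat6 (70.8 and 59.4 FPKM) overlapped, Stat3 (42.8 FPKM) lay apart, and Stat2, Stat5a and Socs2 (16.7, 15.0 and 14.2 FPKM) overlapped. Socs1, Stat4 and Cish followed without overlap, at 5.15, 1.97 and 0.165 FPKM.

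The 9 genes varied in different ways over the libraries. Of their pairs, Stat3 and Stat6 (Pearson r = 0.879 on the log2 scale), Socs2 and Stat5a (0.855) and Stat2 and Stat4 (0.809) were the most alike, and Cish and Stat3 (-0.793) and Socs3 and Stat2 (-0.788) the most opposed. Over the 9 libraries, the tested genes nearest to each were Fasn and Hsh2d for Socs1 (r = 0.934 each), Ptpn21 and Ankrd35 for Socs2 (0.998 and 0.994), Enpp4 and Ssr3 for Socs3 (0.983 and 0.982) and Fcnb and Nt5c3 for Cish (0.998 and 0.997). Fcnb, a gene of neutrophils and their precursors, was at 0.0417, 34.5 and 14.4 FPKM in T-DCs 1 to 3. For the STATs they were Ppp2ca and Ppp1r10 for Stat2 (0.987 and 0.968), Grk3 and Actr2 for Stat3 (0.990 and 0.989), Dusp10 and Hmgcs1 for Stat4 (0.993 and 0.989), Cep162 and Msi2 for Stat5a (0.986 and 0.965) and Snrk and Lima1 for Stat6 (0.990 and 0.981). These are the highest of 12746 genes over 9 libraries in 3 groups, and are given as descriptions.

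Upstream and downstream of the 9 genes, 91 other genes of JAK-STAT signaling were listed, of which 66 were tested. Against N-mDCs, T-DCs expressed less of 18 and more of 1 (median log2 fold change -0.37), where 10.3% of all tested genes were lower and 6.10% were higher (median 0.05). Against T-mDCs, they expressed less of 15 and more of 2 (median -0.21), where 8.79% of all tested genes were lower and 5.44% were higher (median 0.07). With red cell markers as a covariate, 0 of all tested genes passed against T-mDCs, so each call against T-mDCs that follows was lost in that fit. Between T-mDCs and N-mDCs, 1 of the 66 genes passed in limma, where 2.21% of all tested genes did. It was the cytokine gene Il6, with 12.4, 14.6 and 14.3 FPKM for T-mDCs and 1.61, 1.69 and 5.26 FPKM for N-mDCs (log2 fold change 2.06, limma adjusted p = 0.0243). That call was lost without N-mDC 1, N-mDC 2, T-mDC 2 or T-mDC 3 (1.84 to 2.04, limma adjusted p of 0.0610 to 0.118).

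Among the 26 tested cytokine receptor genes, 10 passed as lower in T-DCs and none as higher compared with N-mDCs (10.3% and 6.10% of all tested genes). The 4 called genes with the largest fold changes were Il2rb, the shared chain of the IL-2 and IL-15 receptors, at -2.93, Il21r at -2.53, Il6st, the shared chain of the IL-6 family, at -1.96, and Il4ra, the IL-4 receptor chain upstream of STAT6, at -1.78 (limma adjusted p of 0.0202, 0.00533, 0.0139 and 0.0139). Il2rb lost the call without N-mDC 2, N-mDC 3 or T-DC 3 (-2.97 to -2.47), Il6st without N-mDC 1, N-mDC 3 or T-DC 2 (-1.88 to -1.76), and Il4ra without N-mDC 1 or N-mDC 3 (-1.70 and -1.71). With the red cell covariate, Il2rb was at -4.16 and passed, while Il21r (-1.98), Il6st (-0.96) and Il4ra (-1.06) did not, with limma adjusted p of 0.0687, 0.0751 and 0.141. The Il2rb fold change was 0.086 for T-DCs against T-mDCs (limma adjusted p = 0.942) and -3.01 for T-mDCs against N-mDCs (limma adjusted p = 0.0576). Il2rb was thus low in both leukemic groups. Over N-mDCs, Il2rb (10.49, 18.18 and 37.01 FPKM) rose with the NK cell marker Ncr1 (2.99, 5.122 and 10.98 FPKM). Both were highest in T-DC 2 among T-DCs, while T-mDC 1 had the most Il2rb and the least Ncr1 among T-mDCs. The part of NK cells in the Il2rb difference was not tested. Against T-mDCs, 4 of the 26 receptor genes were lower and 1 was higher (8.79% and 5.44% of all tested genes). Il21r (-2.47), Il9r (-2.17) and Il7r (-2.05) were among the lower ones, with limma adjusted p of 0.00630, 0.00661 and 0.00256, and each kept its call whichever library was left out. The higher one was Epor (4.30, limma adjusted p = 0.0171), which lost the call without T-DC 2, T-DC 3, T-mDC 2 or T-mDC 3 (3.63 to 4.16, limma adjusted p of 0.0530 to 0.0756). The fold change of Epor was 0.70 with red cell markers as a covariate (limma adjusted p = 0.507) and 1.91 without T-DC 2 and T-DC 3 together (limma adjusted p = 0.0936), the libraries with 57770 and 40500 FPKM of red cell markers.

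Of the 4 JAK genes, Jak2 was at 111, 45.1 and 103 FPKM for N-mDCs, at 39.98, 31.9 and 29.4 FPKM for T-DCs and at 95.6, 155 and 156 FPKM for T-mDCs. Its log2 fold change in T-DCs was -1.24 against N-mDCs (limma adjusted p = 0.0487) and -1.95 against T-mDCs (limma adjusted p = 0.0105). The first was lost when any library but N-mDC 2 or T-DC 1 was left out (-1.24 to -1.01), and the second without T-mDC 2 or T-mDC 3 (-1.83 each). With the red cell covariate they were -0.58 and -0.97 (limma adjusted p of 0.423 and 0.433). Tyk2, the JAK of interferon and IL-12 receptors, was lower against T-mDCs, at -1.23 (limma adjusted p = 0.0178), and its call was lost without T-DC 2, T-DC 3, T-mDC 2 or T-mDC 3 (-1.16 to -1.08). For Tyk2, the fold change was -0.35 with the red cell covariate (limma adjusted p = 0.573) and -0.79 without T-DC 2 and T-DC 3 (limma adjusted p = 0.152). Among PIAS proteins and phosphatases, Ptpn11, the gene of SHP2, was higher by 0.85 on the log2 scale against N-mDCs (limma adjusted p = 0.0201), and Ptpn2, whose phosphatase acts on JAKs and STATs, was lower against T-mDCs at -0.70 (limma adjusted p = 0.0306). The Ptpn2 call was lost without N-mDC 1, T-DC 2, T-DC 3, T-mDC 2 or T-mDC 3 (-0.72 to -0.62). Socs4, Socs5, Socs6 and Socs7 passed in none of the 3 comparisons, in which 16.4%, 14.2% and 2.21% of all tested genes passed.

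Among 7 tested cytokine genes, Il15 was lower in T-DCs against N-mDCs (-1.96, limma adjusted p = 0.00807). Against T-mDCs, Il12b was lower (-4.29, limma adjusted p = 0.00455), as were Il6 (-3.09, limma adjusted p = 0.00197) and Il15 (-1.35, limma adjusted p = 0.0348). Of all tested genes, 10.3% were lower against N-mDCs and 8.79% against T-mDCs. Il12b, the shared subunit of IL-12 and IL-23, reached 12.3, 6.43 and 1.67 FPKM in T-DCs and ran from 123 to 126 FPKM over T-mDCs. The Il15 call against T-mDCs was lost without N-mDC 1, N-mDC 3, T-DC 2, T-DC 3, T-mDC 2 or T-mDC 3 (-1.35 to -1.11). With the red cell covariate Il15 was at -0.17 against T-mDCs (limma adjusted p = 0.858) and at -1.17 against N-mDCs (limma adjusted p = 0.0603), and without T-DC 2 and T-DC 3 it was at -0.59 (limma adjusted p = 0.316) and -1.20 (limma adjusted p = 0.0863). The fold change of Il12b was -2.27 with the covariate (limma adjusted p = 0.283) and -3.24 without T-DC 2 and T-DC 3 (limma adjusted p = 0.0515). Of the cytokines and receptors named, the calls of Il15 and Il21r against N-mDCs held whichever single library was left out. So did those of Il12b, Il6, Il21r, Il9r and Il7r against T-mDCs.

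Of 16 tested target genes of STATs, 6 passed as lower in T-DCs and none as higher compared with N-mDCs (10.3% and 6.10% of all tested genes). The largest changes among those past the threshold were in Ccl22 (-3.85), Retnla (-3.43) and Fcer2a (-2.69), which IL-4 and STAT6 induce in myeloid or B cells, and in Mx1 (-2.16), an interferon target. Their limma adjusted p were 0.00164, 0.00151, 0.000743 and 0.00267. Chil3, of the same list, went the other way with a larger fold change of 4.13 that did not pass (limma adjusted p = 0.0708). Its libraries did not overlap between the groups. Isg15, also an interferon target, was at 12.0, 184 and 491 FPKM in T-DCs 1 to 3 and at 65.7, 77.0 and 77.0 FPKM in N-mDCs (0.51, limma adjusted p = 0.775). Irf7 (-0.62), Oas1a (-0.33) and Irf9 (-0.28) did not pass either (limma adjusted p of 0.364, 0.584 and 0.546). Ccl22, Retnla, Fcer2a and Mx1 kept their calls with the red cell covariate, and the calls held whichever library was left out. Over T-DCs, Ccl22 was at 0.0240 to 0.361 FPKM, Retnla at 0.108 to 0.770 FPKM and Fcer2a at 0 to 0.128 FPKM. These genes were below 1 FPKM in all T-DC libraries, and so were tested through the groups in which they were high. Mx1 was at 3.87, 4.96 and 4.65 FPKM in T-DCs. Against T-mDCs, 5 of the 16 were lower and 1 was higher (8.79% and 5.44% of all tested genes). Ccl22 (-2.40, limma adjusted p = 0.0112), Mx1 (-1.81, limma adjusted p = 0.00582) and Retnla (-1.60, limma adjusted p = 0.0282) were among the lower ones. Ccl22 lost this call without T-mDC 2 or T-mDC 3 (-2.20 and -2.40), and Retnla without T-DC 2, T-DC 3 or T-mDC 1 to 3 (-1.83 to -1.22). The higher one was Chil3, a chitinase-like gene of macrophages and neutrophils, at 108, 528 and 240 FPKM in the T-DC libraries (log2 fold change 5.51, limma adjusted p = 0.0316). It lost the call without N-mDC 2, T-DC 2, T-DC 3, T-mDC 2 or T-mDC 3 (4.94 to 5.51) and was at 1.96 with the red cell covariate (limma adjusted p = 0.686), and neutrophil markers were at 7.41, 2859 and 951 FPKM in the same T-DC libraries.

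**Figure D4:**
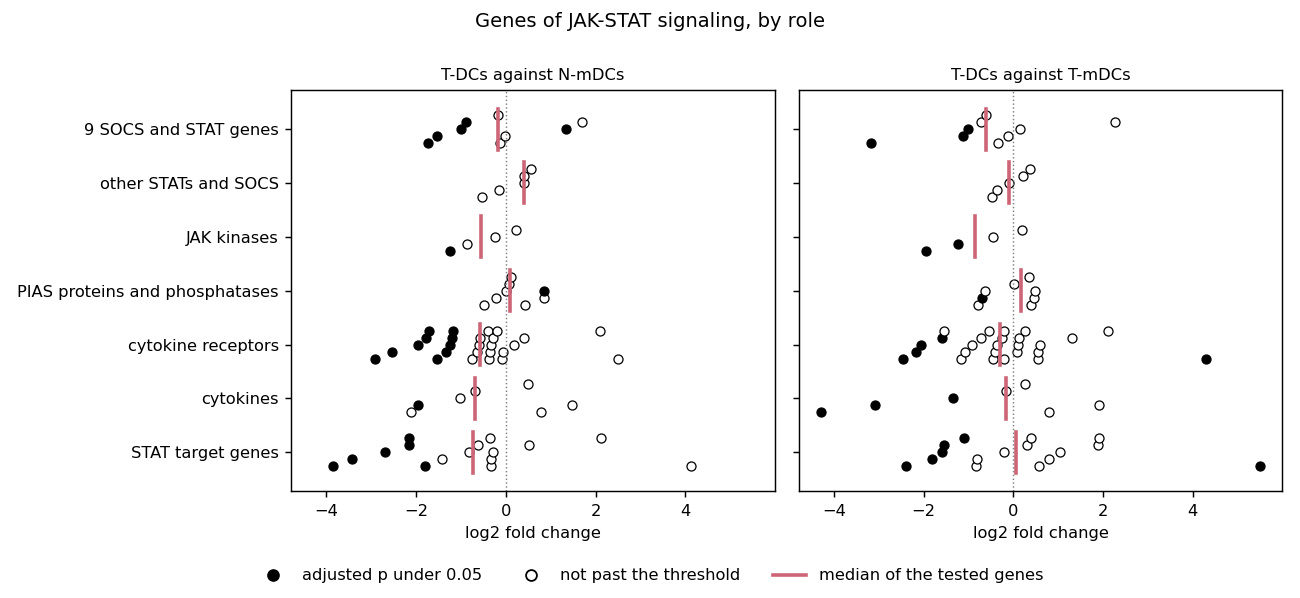
Log2 fold change of T-DCs against N-mDCs (left) and T-mDCs (right) for the 9 genes and for the tested genes of 6 lists of JAK-STAT signaling, 1 point per gene, with limma calls filled and the median of each list as a red line. Against N-mDCs, 10 of 26 cytokine receptor genes and 6 of 16 STAT target genes passed as lower and none passed as higher. Of all tested genes, 10.3% passed as lower and 6.10% as higher in that comparison.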

How the data were processed

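The authors deposited FPKM values for 54532 genes in 9 libraries, with gene positions and lengths. The labels name mm10, and the aligner, counter and strand setting are not given in the sources used here. Whole reads were recovered by dividing the product of FPKM and gene length by the step of a single read, estimated for each library, and rounding. A model of the 3 groups in a single fit (R 4.3.3, limma 3.58.1, with lmFit, contrasts.fit and an eBayes trend) was applied to log2(FPKM + 1) of the 12746 genes at 1 FPKM or more in no fewer than 3 libraries, and p-values were adjusted over all of these genes by the Benjamini-Hochberg method at 0.05. The script was tested on simulated data. Groups came from the sample titles. The 9 genes, the pathway and marker lists and the tests were chosen with earlier results of these data known. All 9 genes are given, the 4 largest calls per pathway list and comparison, and for each gene the 2 tested genes with the highest correlation, leaving out Gm and Rik names. Alternatives were other pseudocounts, filters, scalings, weights, covariates, a replicate block, limma voom on reads and leaving out libraries. A gene of the pathway lists is not reported here. Leaving out T-DC 2 and T-DC 3 together was chosen after seeing the data. The other marker lists (T lineage, B cell, macrophage, conventional and plasmacytoid DC, basophil) summed to 15.1 to 47.2, 30.7 to 86.8, 480 to 2445, 10.0 to 53.6 (cDC1), 107 to 422 (cDC2), 101 to 146 and 0.143 to 5.49 FPKM in T-DCs, against 109 to 165, 190 to 271, 1158 to 2632, 104 to 142, 361 to 394, 183 to 426 and 0.174 to 5.93 FPKM in N-mDCs and 106 to 225, 45.7 to 170, 359 to 1142, 136 to 236, 213 to 291, 53.7 to 87.8 and 0.0840 to 0.273 FPKM in T-mDCs. Single markers did not all follow these sums. In T-DC 2, Cd3e, Cd3g, Lck, Ptcra and Lef1 were at 1.28, 3.06, 10.2, 1.86 and 1.62 FPKM, above every T-mDC library. Cd4, Cd8a and Tcf7 in T-DC 2 were below every T-mDC library. Most of the cDC2 sum in T-DCs was Sirpa, at 404, 177 and 100 FPKM. Cd209a, Clec10a and Clec4a4 were at 0.83 to 4.1, 2.9 to 6.6 and 2.9 to 7.3 FPKM in T-DCs, below all N-mDC libraries.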

Additional observations from a re-analysis of the deposited data

How the results depend on the processing

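The calls of Stat4 against N-mDCs and Socs2 against T-mDCs were the least dependent on processing: Stat4 passed in 19 of 19 alternatives and Socs2 in 19 of 20, the exception being the red cell covariate (-2.01). The other calls were near the threshold and passed in 6 of 19 (Socs1), 8 of 20 (Socs2), 8 of 20 (Socs3) and 11 of 20 (Stat2) alternatives against N-mDCs, and in 13 of 19 (Socs1) and 10 of 19 (Stat4) against T-mDCs. Median-of-ratios scaling and a pseudocount of 0.1 left all 4 counts within 1.5 times. Socs1, Cish and Stat4 could not be tested with the stricter filter, which left 6 of the 9 genes.

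Of the 9 genes, the number called between T-DCs and N-mDCs (5) was 1 with no filter, 3 with an FPKM filter of 5, 2 with quantile normalization, 1 with only these 2 groups, 2 with the replicate block, 8 with array weights, 1 with the mean of T-mDC 2 and 3 as 1 sample, 1 with the red cell covariate and 3 without T-DC 2 and T-DC 3. Between T-DCs and T-mDCs (3) it was 1 with the FPKM filter of 5, 1 with only these groups, 8 with array weights, 1 with that mean and 0 with the red cell covariate. Between T-mDCs and N-mDCs (0) it was 1 with only these groups, 6 with array weights and 1 without T-DC 2 and T-DC 3. In the F-test (3) it was 1 with the FPKM filter of 5, 9 with array weights and 1 with the red cell covariate. Leaving out 1 library gave 1 to 6, 1 to 5, 0 to 2 and 2 to 7. Over all tested genes, the 3 comparisons gave 2096, 1813 and 282 calls in the main fit. They gave 8485, 9923 and 3841 with array weights and 5030, 4475 and 1022 without T-DC 1. For the F-test, the share over all genes is given for the main fit only. Quantile normalization gave 1940, 1804 and 327 over all tested genes, and the replicate block 1378, 1253 and 78. With only the 2 groups compared, the counts were 1070, 1036 and 850, and with the mean of T-mDC 2 and 3, 1394, 540 and 23. Other numbers of genes were tested with no filter (1489, 1279 and 278 calls) and with the FPKM filter of 5 (1449, 1190 and 111). The causes were not tested.

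Over all genes, 2096, 1813 and 282 calls became 522, 0 and 261 with the red cell covariate. Same-numbered libraries deviated from their group means with correlations of -0.475 to 0.269, and those of T-DCs with T-mDCs were -0.071, -0.118 and 0.022. Deviations from means of 3 libraries cannot show whether same-numbered leukemic libraries came from the same mice. The main fit did not pair them. The replicate block gave 2, 2, 0 and 4 called genes in the 4 tests.

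None of the fold changes called in the report turned its sign. With the red cell covariate, those that turned (in order, T-DCs minus N-mDCs, T-DCs minus T-mDCs and T-mDCs minus N-mDCs) were Cish (-0.19, -0.56, 0.37), Stat6 (0.63, 0.83, -0.20) and Stat3 (0.63 and 0.57, the first and second only). Without T-DC 2 and T-DC 3, they were Cish against N-mDCs (-0.45), Stat3 (0.54 and 0.10) and Stat6 (0.66 and 0.55). Quantile normalization turned Socs3 against T-mDCs (-0.13), and array weights turned Stat6 in T-mDCs against N-mDCs (-0.019). When single libraries were left out, values on both sides of 0 were found against N-mDCs for Stat3 (-0.53 to 0.14), Stat5a (-0.29 to 0.063) and Stat6 (-0.35 to 0.23), against T-mDCs for Socs3 (-0.24 to 0.48) and Stat6 (-0.47 to 0.12), and between T-mDCs and N-mDCs for Stat6 (-0.018 to 0.23).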
